A study of Mus musculus with 6 samples.

Results

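Enteroendocrine cells are the scattered hormone-producing cells of the gut epithelium, and their genes were examined in mouse organoids of the stomach and esophagus. The genes are the granins *Chga* and *Chgb*, the hormones *Gast*, *Sst*, *Ghrl* and *Cck*, the amine-synthesis enzymes *Hdc* and *Tph1*, and the transcription factors *Neurog3* and *Neurod1*. They were taken by name from the array, which gave 10 of its 34298 gene or transcript names and 12 of its 55681 distinct probes. Three-dimensional epithelial organoids at passage 0 were measured on single-color Agilent arrays, 3 of stomach and 3 of esophagus, with mice numbered 1, 2 and 4 in the labels of both. Every label also marks its culture as a control. The animals were wild-type C57BL/6 females. Harvest was on day 8, and for mouse 4's stomach culture on day 7.

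In the study's culture methods, stomach organoids were grown from glands of the corpus in medium with R-spondin1 and WNT3A, and with the peptide gastrin. Esophageal organoids there received none of these, but forskolin. Both media held EGF, noggin, FGF-10, B27, N2, N-acetylcysteine, nicotinamide, a TGF-β receptor kinase inhibitor and a ROCK inhibitor. The study also grew esophageal organoids with WNT3A and R-spondin1, and its array methods do not name the medium. With the media above, tissue and medium changed together and cannot be told apart. Each array averages a whole culture, so fewer cells of a type and less RNA per cell cannot be told apart either.

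Enteroendocrine cells of the intestine, and part of those of the stomach, arise from epithelial progenitors through the basic helix-loop-helix factor Neurog3, followed by Neurod1. Their granules carry the granins chromogranin A and B together with a peptide hormone or an amine. In the corpus, enterochromaffin-like cells make histamine with Hdc, X/A-like cells make ghrelin and D cells make somatostatin. Gastrin comes mainly from G cells of the antrum, serotonin from enterochromaffin cells with Tph1, and cholecystokinin from I cells of the intestine. The stratified epithelium of the esophagus is not known as a site of such cells.

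All values are the authors' normalized intensities on a log2 scale. A probe is called well above background where the scanner software marked most of its spots so. That held for 45.5% to 51.1% of the non-control spots of an array, no spot was saturated, and the 308 negative-control spots had medians of 4.56 to 4.67 and 95th percentiles of 4.85 to 5.04. The tissue labels held on both sides. The squamous genes *Krt5*, *Krt13*, *Krt14* and *Col17a1* were all higher in esophageal organoids, with adjusted p of 5.43e-07 or lower in limma. *Col17a1*, at background in stomach, was at least 747-fold higher. The columnar genes *Krt8*, *Krt18*, *Gkn3*, *Tff1* and *Tff2* were all higher in stomach organoids, with adjusted p of 2.27e-05 or lower in limma.

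The probes are 60 bases long and decide what was measured, so stretches of 30 bases are shown for the genes that the results turn on. The coordinates are those in the files (mouse build mm9), on the strand given. An annotation of mm9 was not used here, so no exon or untranslated region is assigned. Capitals mark AATAAA, the usual polyadenylation signal. All 10 gene names matched a symbol in the RefSeq gene table of GRCm38.p6.
*Ghrl* (chr6:113666114-113666173, minus strand, bases 20 to 49): taccactttaagAATAAAtgttcacctgta
*Chga* (chr12:103803083-103803142, plus strand, bases 1 to 30): acaggcagctttctagaagtttctcttcca
*Chgb* (chr2:132620703-132620762, plus strand, bases 1 to 30): tagcgtgacttgtagcgtattcttcctgca
*Neurog3*, brighter probe (chr10:61597452-61597511, plus strand, bases 1 to 30): gtctcccgtgtctaaagtgtgagttgcagg
*Neurog3*, dimmer probe (chr10:61596051-61596110, plus strand, bases 1 to 30): tattcttttgagtcgggagaactaggtaac

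AATAAA was found in 1 of the 12 probes, that of *Ghrl*, and its reverse complement TTTATT in none. Over all 55681 probes these letters occurred in 10.1% and 3.74%. The 2 probes of *Neurog3* start 1401 bases apart. Those of *Neurod1* lie on chromosome 2, 688 bases apart. GC content ran from 23.3% in the dimmer *Neurod1* probe to 53.3% in the brighter *Neurog3* probe, with a median of 43.3% over all probes.

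None of the 10 enteroendocrine genes passed the test for a difference between the organoids, and most gave no signal to compare. With each gene read by its brightest probe, limma called 0 of 10 higher in stomach and 0 of 10 higher in esophageal organoids at an adjusted p under 0.05. Over all gene names the same rule called 7.7% higher in stomach and 7.15% higher in esophagus. At p under 0.05 without adjustment and at least 1.5-fold, the thresholds of the study's methods, which do not state whether p was adjusted, the count was again 0 of 10, against 21.7% of all gene names. The median log2 difference, esophagus minus stomach, was -0.13 for the 10 genes and 0.03 for all. Only *Ghrl* exceeded background throughout a tissue (3 of 3 arrays), 1 of 10 genes against 53.9% of all names. Of the others, 6 (*Gast*, *Sst*, *Hdc*, *Tph1*, *Neurod1* and *Cck*) were above background on no array, as were 36.2% of all names.

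**Figure D1:**
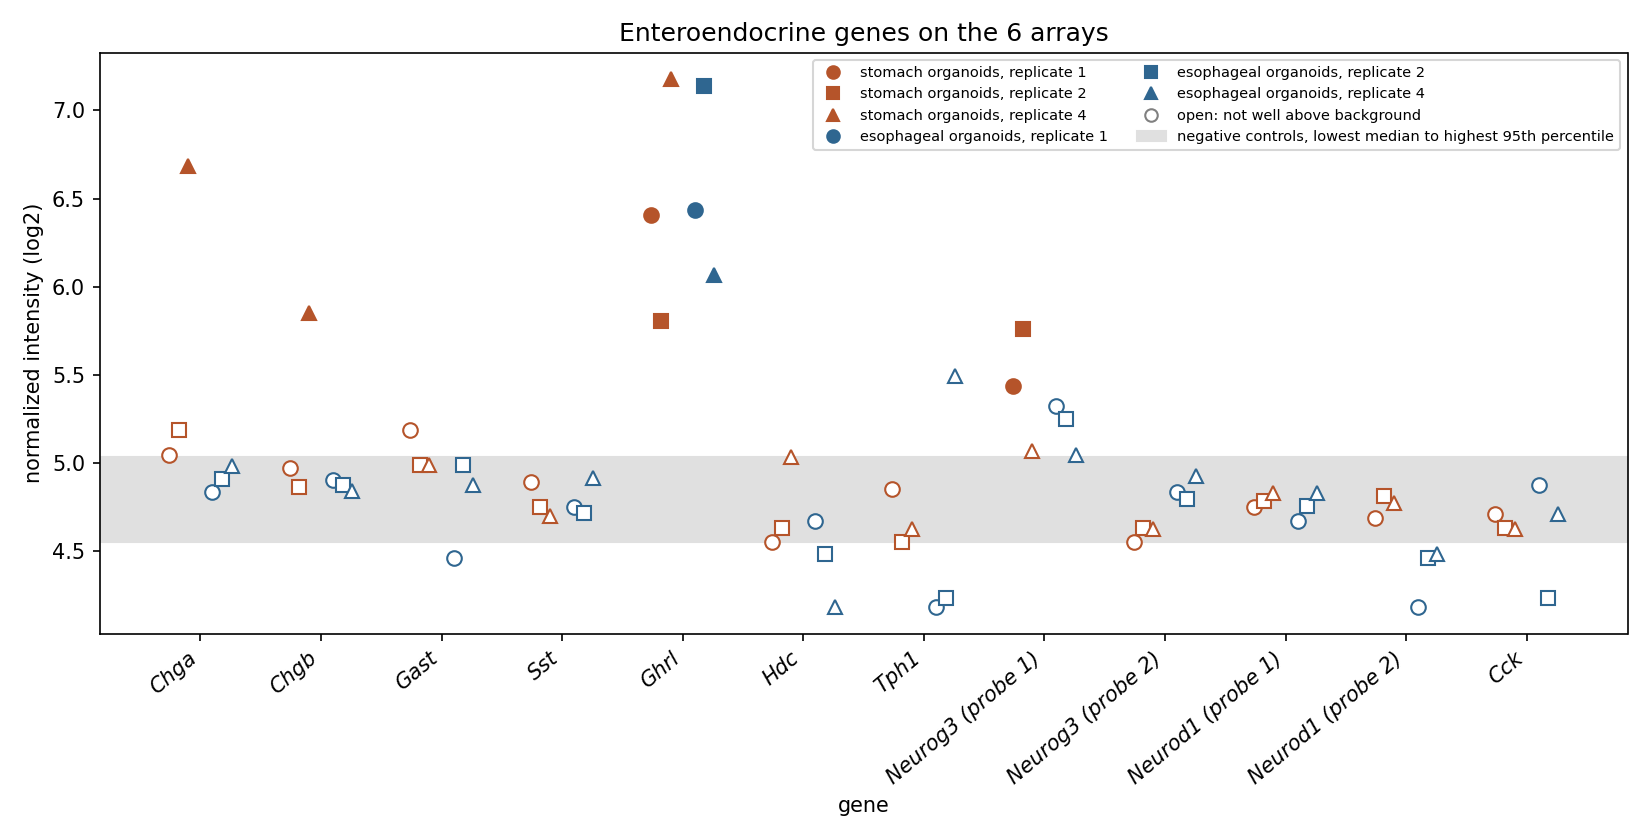
Normalized intensity (log2) of each enteroendocrine probe on the 3 stomach arrays (orange) and the 3 esophagus arrays (blue), with symbol shape for the mouse and open symbols for values not well above background. The 6 *Ghrl* values from 5.81 to 7.18, the *Chga* and *Chgb* values of stomach replicate 4 and a pair of *Neurog3* values are the filled points, and nearly all others lie within or near the gray band of the negative controls.

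Ghrelin, the acylated peptide that stimulates appetite and growth hormone release, was the only hormone among the 10 genes with a transcript above background on every array. *Ghrl* read 6.41, 5.81 and 7.18 in the stomach organoids of mice 1, 2 and 4. In the esophageal organoids of mice 1, 2 and 4 it read 6.43, 7.14 and 6.07. The tissues overlapped fully, and the order within a mouse number was not shared: the esophagus was higher by 1.33 in mouse 2 and the stomach by 1.11 in mouse 4 (esophagus minus stomach, -1.11), with 0.03 in mouse 1. The fitted log2 difference was 0.08 ± 0.39 (SE), with a 95% interval from -0.82 to 0.98 and an adjusted p of 0.933 in limma. That interval still holds differences of more than 1.5-fold either way. Leaving out the stomach array of mouse 4 moved the difference to 0.44, and leaving out that of mouse 2 turned it to -0.25, both uncalled.

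The genes next to ghrelin in its own pathway gave little more. *Mboat4*, the acyltransferase that octanoylates ghrelin, was well above background on none of the 6 arrays, with values from 4.83 to 5.53. *Ghsr*, the ghrelin receptor, was also at background on all of them. The 3 genes whose profile over the 6 arrays came closest to that of *Ghrl*, among 14551 named genes that exceeded background throughout at least 1 tissue, were *Ssc5d*, *Defb26* and *Atrn*. Their root mean square differences from its centred log2 values were 0.16, 0.18 and 0.19. None of these genes was called between the tissues either.

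The granins are acidic proteins of the secretory granule, and their transcripts stood out on a single array. *Chga* read 5.05, 5.19 and 6.69 in the stomach organoids of mice 1, 2 and 4. It read 4.84, 4.91 and 4.99 in the esophageal organoids. The stomach array of mouse 4 was the only one where the probe was well above background. The other stomach values lay close to the esophageal ones, although the groups did not overlap and all 3 stomach values exceeded the 95th percentile of their arrays' negative controls, as no esophageal value did. The difference was -0.73 ± 0.40 (SE; 95% interval -1.66 to 0.20) with an adjusted p of 0.337 in limma. Without the stomach array of mouse 4 it was -0.21. With the software's processed signal scaled to the 75th percentile it was -2.19 (adjusted p = 0.115), still uncalled.

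*Chgb* showed the same array, here with 10 spots of 1 probe on each array. The spot means were 4.97, 4.87 and 5.85 in the stomach organoids of mice 1, 2 and 4. They were 4.90, 4.88 and 4.84 in the esophageal organoids. All 10 spots were well above background on the stomach array of mouse 4, from 5.66 to 6.08, and none was on the other 5 arrays, where the highest spot reached 5.50. The difference between tissues was -0.36 ± 0.26 (SE; 95% interval -0.96 to 0.25), with an adjusted p of 0.488 in limma, and -0.05 without the stomach array of mouse 4. With the processed signal it was -1.10 (adjusted p = 0.358). The spots of an array share 1 RNA sample and are not replicates of the tissue.

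**Figure D2:**
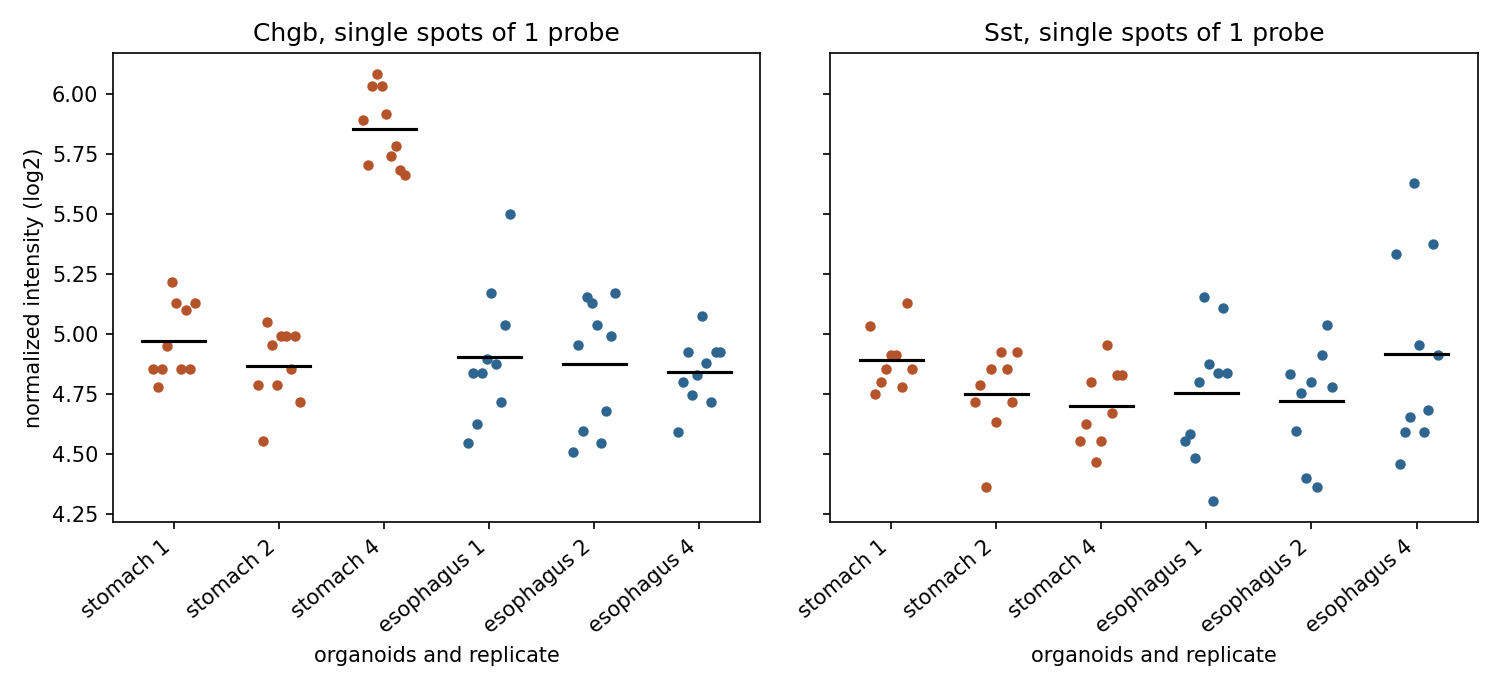
Normalized intensity (log2) of the single spots of the *Chgb* probe (left) and the *Sst* probe (right) on each array, with the horizontal line at their mean. The 10 *Chgb* spots of stomach replicate 4 lie from 5.66 to 6.08, above every *Chgb* spot of the other arrays, while the *Sst* spots show no array apart.

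Related genes moved both ways on that same array. It was the highest of the 3 stomach arrays for 5 of the 10 enteroendocrine genes and the lowest for 3, and the highest for 32 and the lowest for 25 of 80 companion genes, which are those on lists of hormones, endocrine factors, granule proteins, amine enzymes and receptors. Its value exceeded the higher of the other 2 stomach arrays by 1.499 for *Chga* and 0.88 for *Chgb*. Gaps at least as large were found for 0.359% and 2.13% of all gene names. Of the names, 1.18% (403) were well above background on this array and on no other, and these include 2 of the 10 enteroendocrine genes (*Chga* and *Chgb*) and 3 of the 80 companion genes. The 3 are *Insm1*, a zinc-finger factor of endocrine differentiation (5.53, against 4.97 and 4.56 on the other stomach arrays), *Resp18*, a granule-associated protein (5.55, against 4.99 and 5.03), and the somatostatin receptor *Sstr2* (6.07, against 5.17 and 4.92). The corresponding counts were 0 of 10 and 1 of 80 for the stomach array of mouse 1, where 1.51% of names were above background alone, and 0 and 0 for that of mouse 2, with 0.225%. *Pdx1* and *Ptprn* were also highest there, at 7.74 and 7.76. Lowest there were the granule genes *Rab3b* (8.66, against 10.33 and 9.53), *Rab3c* (11.12, against 12.67 and 12.28) and *Snap25* (11.80, against 12.39 and 12.85), and the factor *Sox4* (10.57, against 11.41 and 11.73). Of 11 mast cell markers, 5 were highest on this array and 3 lowest, among them the proteases *Mcpt1*, *Mcpt2* and *Mcpt4* as high (5.51, 7.01 and 5.89) and *Tpsb2* as low (7.70, against 9.91 and 8.90). The squamous markers, read by their brightest probes, had a mean of 5.54 on this array, against 5.14 and 5.02 on the other stomach arrays. *Krt13* was at 6.35 there (against 5.38 and 5.12). *Krt5* was well above background only there among the stomach arrays, at 5.39. *Krt14* was also highest there, and *Col17a1*, at background, was not. The other *Krt13* probe went the opposite way. It was above background on all 3 stomach arrays and lowest on this one, at 7.57, against at least 8.19 on the others. The other *Krt5* probe was at background on all 3. Of the columnar markers, *Gkn3* was lower there, at 16.16 against 17.16 and 17.07. *Krt18* (16.44, against 16.60 and 16.66) and *Tff2* (17.48, against 17.62 and 17.73) were slightly lower. *Tff1* was equal on the stomach arrays with its brighter probe, at 17.875. *Krt8* was highest there with its brighter probe (16.88, against 16.71 and 16.65) and lowest with its dimmer one (14.43, against 14.81 and 14.88). The array differs from the other stomach arrays in mouse and in day of harvest, which cannot be told apart, and the part of these or of the marker genes was not tested.

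Gastrin and cholecystokinin act on related receptors to drive acid secretion and gallbladder contraction. *Gast* read 5.19, 4.99 and 4.99 in stomach organoids and 4.46, 4.99 and 4.88 in esophageal organoids, in the order of mice 1, 2 and 4. *Cck* read 4.71, 4.63 and 4.63 against 4.88, 4.24 and 4.71. Neither was well above background anywhere and their tissues overlapped, so no fold is given. Against the 95th percentile of the negative controls, *Gast* was higher on 3 of 3 stomach arrays and 1 of 3 esophagus arrays, and *Cck* on 0 of 3 in both. The adjusted p values were 0.423 and 0.918 in limma. Of their receptors, *Cckbr* was above background on 1 array of each tissue and *Cckar* on none.

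Somatostatin is the inhibitory hormone of D cells, and its probe was printed 10 times on each array. The mean *Sst* value over its usable spots was 4.89, 4.75 and 4.70 in stomach and 4.75, 4.72 and 4.92 in esophageal organoids. These means fell within the range of the negative controls, and single spots marked above background numbered 1 of 9, 0 of 9 and 0 of 9 in stomach and 0 of 10, 1 of 9 and 1 of 10 in esophagus. The interval of the difference was the second narrowest among the 10 genes read by their brightest probes, from -0.32 to 0.35, with an adjusted p of 0.965 in limma.

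Histidine decarboxylase makes histamine and tryptophan hydroxylase 1 starts serotonin synthesis. *Hdc* read 4.56, 4.63 and 5.04 in stomach and 4.67, 4.49 and 4.18 in esophageal organoids, and its highest value was again on the stomach array of mouse 4. *Tph1* read 4.85, 4.56 and 4.63 against 4.18, 4.24 and 5.49. Neither was well above background on any array and neither passed the test, with adjusted p of 0.444 and 0.965 in limma. The single high *Tph1* value belongs to the esophagus array of mouse 4, the only one on the second slide. Without it the *Tph1* difference was -0.47 and still uncalled, with an adjusted p of 0.155. On that array the mast cell carboxypeptidase *Cpa3* was well above background, at 5.78, as on no other. Other mast cell markers went both ways there. *Tpsb2* (7.54, against 9.16 and 8.32), *Mcpt4* and *Fcer1a* were lowest of the esophagus arrays, and *Mcpt1* and *Tpsab1* highest. The mean of the mast cell list was 5.05 there, against 5.21 and 4.99 on the esophagus arrays of mice 1 and 2.

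Of the transcription factors, *Neurog3* gave 2 probes that did not share a direction. The brighter *Neurog3* probe read 5.44, 5.76 and 5.07 in stomach and 5.33, 5.25 and 5.05 in esophageal organoids. It was well above background on the stomach arrays of mice 1 and 2 only, not on that of mouse 4 where the granins were high. All 6 of its values exceeded the 95th percentile of their arrays' negative controls. The dimmer *Neurog3* probe was at background on all arrays, with 4.56, 4.63 and 4.63 against 4.84, 4.80 and 4.93. The log2 differences were -0.21 ± 0.20 and 0.25 ± 0.13 (SE), with adjusted p of 0.611 and 0.322 in limma. The brighter probe's difference was -0.05 without the stomach array of mouse 2 and -0.39 without that of mouse 4, and -1.55 (adjusted p = 0.0802) with the processed signal, all uncalled.

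*Neurod1* was above background with neither probe. Its brighter probe read 4.75, 4.79 and 4.83 in stomach and 4.67, 4.76 and 4.83 in esophageal organoids. Its dimmer probe read 4.69, 4.82 and 4.78 against 4.18, 4.46 and 4.49, without overlap. In limma this was the 1 of 12 probes with an unadjusted p under 0.05 (0.0351, adjusted 0.166), where 23.9% of all probes had one. Values of the tissues did not overlap for 3 of the 12 probes (*Chga* and the dimmer probes of *Neurog3* and *Neurod1*), against 28.6% of all probes.

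**Figure D3:**
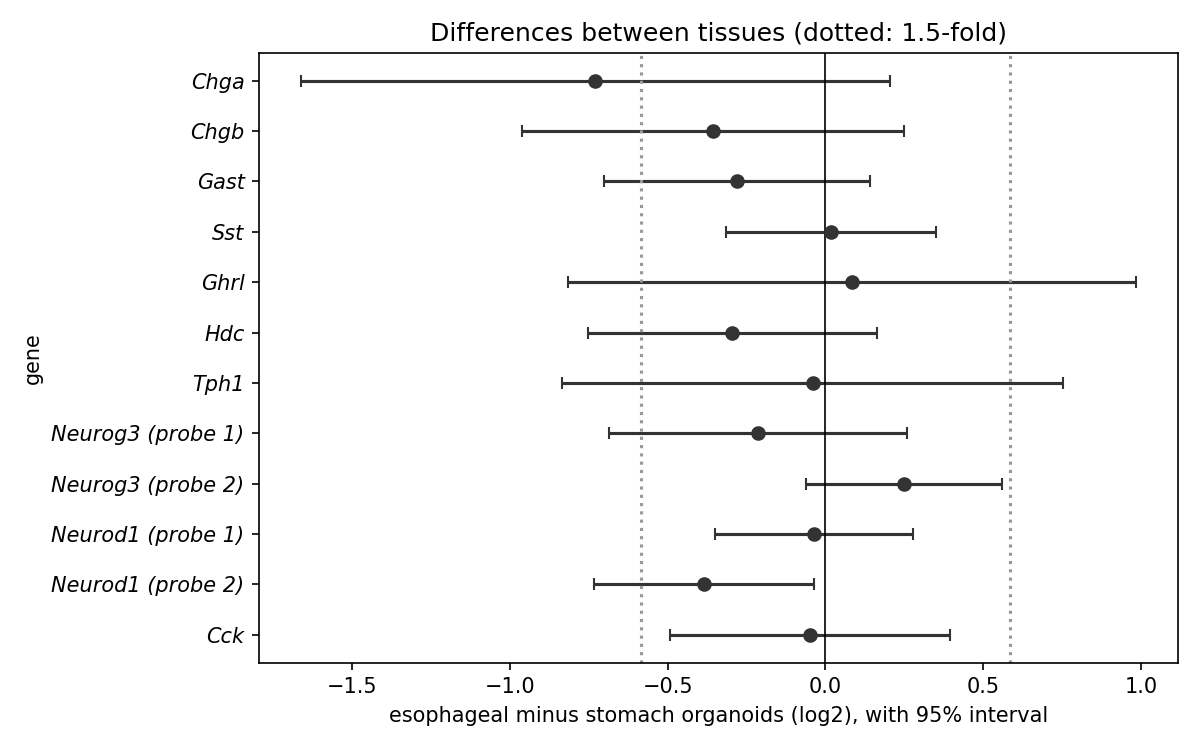
Difference between esophageal and stomach organoids (log2) for each enteroendocrine probe, with its 95% interval from limma and dotted lines at 1.5-fold either way. The intervals run from -1.66 at the lowest (*Chga*) to 0.98 at the highest (*Ghrl*), and only that of the dimmer *Neurod1* probe, labeled probe 2, leaves out 0 before adjustment.

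The rest of the endocrine program was read from lists of 80 companion genes. Of these, 15 were higher in stomach and 6 higher in esophageal organoids at an adjusted p under 0.05, which is 18.8% and 7.5% against 7.7% and 7.15% of all gene names. In all, 33 (41.3%) were above background on no array, against 36.2% of all names. The counts of the single lists below are descriptions beside these shares. Among 11 other gut hormones, 8 were above background on no array, including *Gcg*, *Gip*, *Pyy*, *Nts* and *Vip*. *Nucb2*, the precursor of nesfatin-1 that many cell types express, was above background on all 6 arrays, at 9.47 to 10.22 in stomach and 9.73 to 11.78 in esophagus, and was not called. The 2 that were called, *Tac1* and *Sct*, were higher in esophageal organoids, and none was higher in stomach. *Tac1*, the precursor of substance P, read 11.49, 13.03 and 8.84 in esophageal organoids and was at background in stomach, so that it was at least 83.6-fold higher (adjusted p = 0.00279 in limma). This limit was 43.1-fold without the esophagus array of mouse 2 and 184-fold without that of mouse 4. *Sct*, the precursor of secretin, read 6.05, 5.74 and 5.92 in esophagus against 4.85, 4.92 and 5.53 in stomach (adjusted p = 0.0491). The *Sct* call was lost in 7 of 14 distinct fits, among them the mouse as a block and leaving out any single array but the stomach array of mouse 4, with adjusted p up to 0.184.

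Of 21 transcription factors linked to the endocrine lineage, 6 were higher in stomach, 1 was higher in esophagus and 14 were not called. *Foxa2*, a pioneer factor of endoderm, was at least 182-fold higher in stomach organoids. *Isl1*, a LIM homeodomain factor of islet and gastric endocrine cells, read 9.61, 9.45 and 9.74 there and was at least 21.4-fold higher. *Nkx6-3* was at least 6.55-fold, *Pdx1* at least 4.30-fold and *Hhex* at least 3.76-fold higher. *Sox4*, a factor of many progenitor cells, differed by -1.72 and lost its call in 5 of 14 distinct fits (adjusted p up to 0.127), among them leaving out the stomach array of mouse 1 or 2 or the esophagus array of mouse 2 or 4. *Foxa2*, *Hhex* and *Pdx1* also pattern the foregut and stomach outside endocrine cells. *Etv1* was higher in esophagus by 1.56 (log2) with its brighter probe.

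Of the 21 factors, 11 were above background on no array. *Neurod2*, a relative of *Neurod1* known mainly from neurons, was above it on all 6 arrays, at 7.59 to 8.77, and was not called. *Pax4* and *Pax6* were above background on no array. *Insm1* was so only on the stomach array of mouse 4. *Nkx2-2* was above background on all 6 arrays with its brighter probe, at 5.72 to 6.28, and on none with its dimmer one, with adjusted p of 0.582 and 0.442 in limma.

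Among 20 genes of granules and prohormone processing, 3 were higher in stomach and 2 in esophagus. *Cpe*, carboxypeptidase E, which trims prohormones and is also expressed outside endocrine cells, read 15.09, 14.66 and 14.68 in esophageal organoids. It read 6.25, 6.43 and 6.68 in stomach organoids, a difference of 8.36 ± 0.19 (SE) that its other 2 probes shared in direction. The prohormone convertase *Pcsk1* was above background on no array. *Pcsk2* read 5.12 to 5.64 in stomach and 5.72 to 5.84 in esophagus with its brighter probe, and *Scg5*, the chaperone of that convertase, 5.36 to 5.69 and 4.99 to 5.29, and neither was called.

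The 3 granule genes higher in stomach were *Rab3b*, a vesicle GTPase (difference -4.003), *Snap25*, a SNARE of exocytosis (-2.66), and *Ptprn*, a membrane protein of dense-core granules. *Ptprn* read 6.48, 7.03 and 7.76 and was at least 4.29-fold higher than in esophagus, where it was at background. *Stx1a*, another SNARE, was at least 4.36-fold higher in esophageal organoids.

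**Figure D4:**
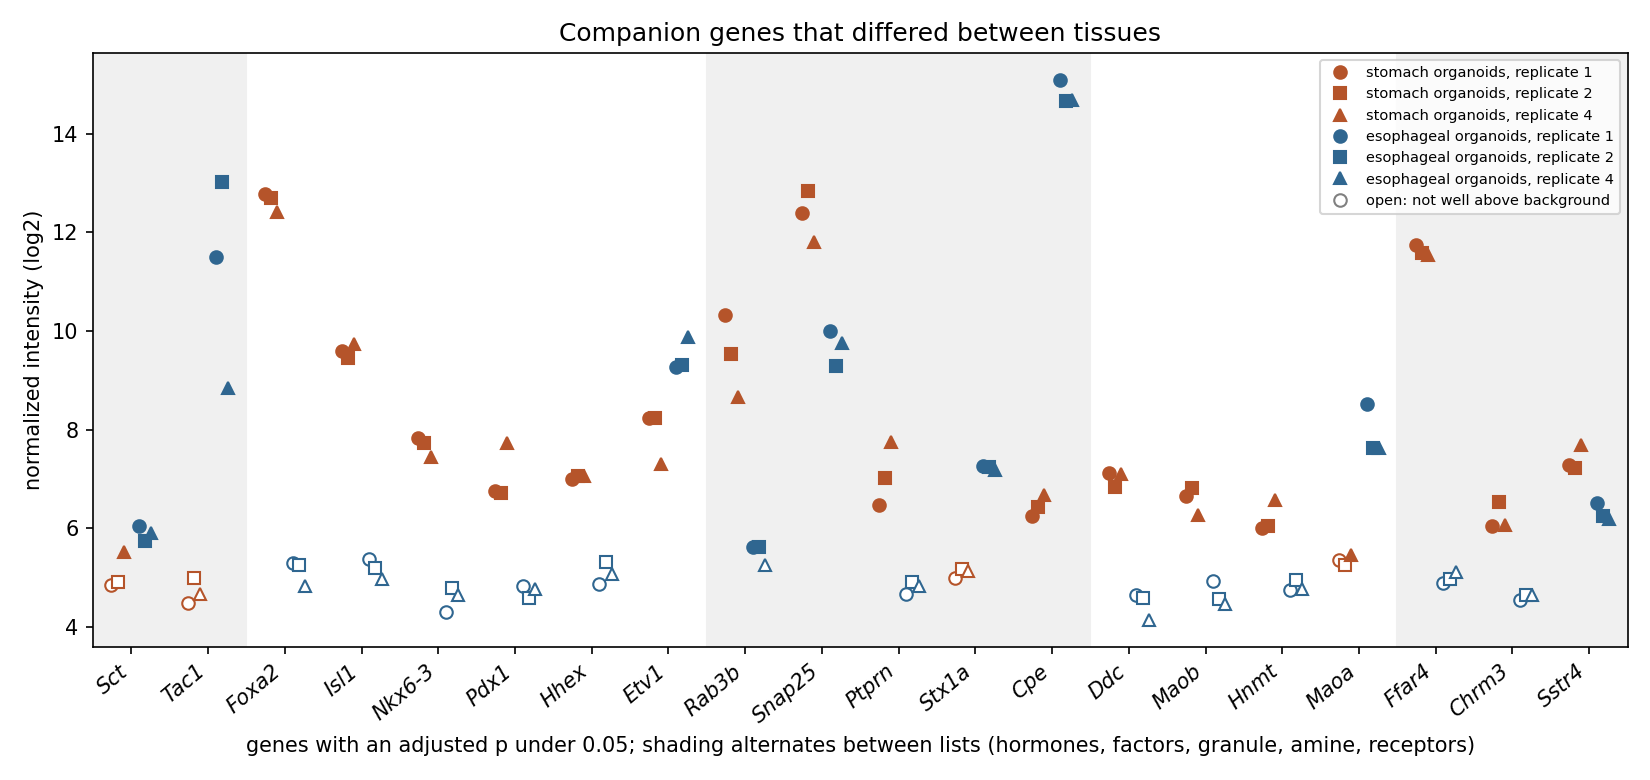
Normalized intensity (log2) of the companion genes that the text names as different between tissues, other than *Sox4*, which is not drawn. Stomach arrays are in orange and esophagus arrays in blue, with symbol shape for the mouse and open symbols for values not well above background. *Foxa2*, *Isl1* and *Ffar4* lie far higher in stomach organoids, and *Tac1* and *Cpe* far higher in esophageal organoids.

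Of 11 genes of amine synthesis and storage and of ghrelin acylation, 3 were higher in stomach and 1 in esophagus. *Ddc*, which makes serotonin and dopamine from their precursors, was at least 4.18-fold higher in stomach organoids with its brighter probe, while its dimmer probe was at background on all arrays. *Hnmt* and *Maob*, which degrade histamine and amines, were at least 2.38-fold and 3.09-fold higher in stomach. *Maoa* was higher in esophagus by 2.57 (log2). The vesicular transporter *Slc18a1*, at 6.52 to 6.93 in stomach and 5.15 to 6.11 in esophagus, was not called (adjusted p of 0.0704 in limma). Neither was *Slc18a2* with its brighter probe, at 6.73 to 7.23 and 7.22 to 7.93 (adjusted p of 0.106 in limma). The dimmer *Slc18a2* probe was at background on all arrays (adjusted p of 0.897 in limma).

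Of 17 receptors, 3 were called, all higher in stomach. *Ffar4*, a fatty acid receptor known from enteroendocrine cells and other epithelia, read 11.74, 11.58 and 11.54 and was at least 92.9-fold higher. *Chrm3*, the muscarinic receptor, was at least 2.40-fold higher. *Sstr4*, a somatostatin receptor, differed by -1.09, with 7.23 to 7.70 in stomach and 6.18 to 6.52 in esophagus.

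Other cells could carry some of these transcripts, and their markers were read alongside. Of 11 mast cell markers, which bear on *Hdc* and *Tph1*, only *Kit* was called, higher in stomach (adjusted p = 0.014 in limma). It was well above background on 2 of 3 stomach arrays and 0 of 3 esophagus arrays, so no fold is given. The mean level of the list was 5.26 to 5.46 on stomach arrays and 4.99 to 5.21 on esophagus arrays, and *Cma1*, *Tpsab1*, *Fcer1a* and *Ms4a2* were above background on no array. *Tpsb2* was above it on all 6 with its brighter probe, at 7.70 to 9.91 in stomach and 7.54 to 9.16 in esophagus, and on none with its dimmer one, and *Mcpt2* was above it on all 3 stomach arrays. Neither was called. Of 11 neuron and glia markers, *Tubb3* and *Elavl4* were higher in esophageal organoids (differences 4.37 and 0.92), where *Tac1* was high, and the list's mean was 6.61 to 6.95 there against 6.33 to 6.37 in stomach. *Phox2a*, *Prph* and *Sox10* were above background on no array. Of 7 Merkel cell markers, *Isl1* and *Krt20* were higher in stomach, and *Atoh1*, *Gfi1*, *Nefm*, *Piezo2* and *Pou4f3* were above background nowhere; the list's mean was 6.33 to 6.53 in stomach and 4.91 to 5.22 in esophagus. The part of such cells in the values was not tested. Of 7 immune and stromal markers none was called, and the leukocyte gene *Ptprc* was at background on all arrays.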

How the data were processed

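Single-color Agilent arrays of 6 organoid cultures were read by the authors with Feature Extraction (version 11.5.1.1, per the submitters' processing notes and file headers). The deposited scanner files hold intensity values and flags for 62976 spots per array, and the authors' deposited table holds log2 values. These log2 values were rebuilt within 0.0726 by normexp (offset 15) on median intensities and quantile normalization, and the table's 2029 empty cells are outlier-marked spots. Spots of a probe were averaged, leaving 55681 probes. Tissues were compared with lmFit and eBayes (limma 3.58.1, R 4.3.3) in 1 fit of the 6 arrays, tissue as the only term and p-values adjusted over all probes (Benjamini-Hochberg); the script was tested on simulated data. A gene is read by its brightest probe. A fold written "at least" sets the brighter group's mean against the dimmer group's mean of, per array, the higher of the probe's own value and the lowest signal marked well above background. The rule named all 10 members with all probes, up to 5 genes in each direction per list, and a fixed set of pathway genes; genes high on a single array, and some background examples, were chosen after their values were seen. For the nearest profiles, names that are only probe, transcript or interval identifiers were left out.

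The members and lists were chosen with earlier results of these data known. The labels give both tissues the mouse numbers 1, 2 and 4, which was read as pairing by animal, although no source states it outright. Deviations from the tissue means correlated within numbers with r = 0.025, 0.012 and -0.008, and between numbers with -0.073 to 0.040. Alternatives were other background corrections and scalings, other filters and thresholds, the mouse or slide as a block and leaving out each array. Precision is limited by the number of arrays, and 3 against 3 do not allow an exact permutation p under 0.1.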

Additional observations from a re-analysis of the deposited data

How the results depend on the processing

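Under none of the 18 alternatives was an enteroendocrine gene called in either direction. Companion genes numbered 14 to 19 higher in stomach and 5 to 7 higher in esophagus, within 1.5 times the main counts of 15 and 6. The slide as a block gives the same estimates as leaving out esophageal replicate 4, the only array on its slide, and is no separate support. With the mouse as a replicate block the counts were 0 and 0 enteroendocrine and 15 and 5 companion genes, and no call of an enteroendocrine gene changed. Among called companion genes, *Sct* lost its call in 7 of 14 distinct fits (the mouse block included) and *Sox4* in 5 (an offset of 50, and without stomach replicate 1 or 2 or esophageal replicate 2 or 4; adjusted p up to 0.127), and the other 19 lost none. Of 169 probe differences recomputed (the slide block included), 0 were called and 21 changed sign, none of them called before or after. Differences of dim probes depended on the scale. With the processed signal scaled to the 75th percentile, *Chga* stood at -2.19 (adjusted p = 0.115 in limma), *Chgb* at -1.10 and the brighter *Neurog3* probe at -1.55 (adjusted p = 0.0802), and the dimmer *Neurod1* probe turned to 0.21. Across all its alternatives *Chga* ranged from -2.19 to -0.21, with adjusted p from 0.115 upward. With dim probes left out, *Ghrl* alone of the 10 genes could be tested. For 6 genes no array had a signal well above background.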
